A study of Sus scrofa with 12 samples.

Results

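On arrays of porcine fat cell precursors, 380 of 43221 probes read lower after 4 days of differentiation with a control siRNA than in undifferentiated cells. They read higher with GPR124 siRNA than with control siRNA. With control siRNA their median log2 ratio to undifferentiated cells was -1.70, a 3.24-fold median fall. With GPR124 siRNA it was -0.32, so on this scale most of the fall was missing. With siRNAs against F2RL2 and LGR4 the medians were -1.64 and -1.53, close to control. The probes were chosen by these same 4 group means, so the levels describe the choice and are not a test of it. No slide held both GPR124 and control arrays, so siRNA and slide cannot be told apart by comparing those arrays. The reference was not transfected and dyes were not swapped, so a fall below it is not due to differentiation for certain. In cultures measured in bulk, fewer cells of a type and less RNA per cell cannot be told apart.

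The cells were subcutaneous preadipocytes labelled as female, from pig. Each of 12 two-colour Agilent arrays carried, in Cy3, RNA of cells that had received an siRNA and then 4 days of adipogenic medium, and in Cy5, RNA of preadipocytes at day 0 that had neither been transfected nor differentiated. The 4 groups of 3 arrays were AllStars negative control siRNA, F2RL2 siRNA, LGR4 siRNA and GPR124 siRNA, the last 3 designed by SIGMA. The characteristics field spells the F2RL2 target R2RL2, and the titles were followed. All transfected groups received octanoate at 5 mM, dexamethasone at 0.25 µM and insulin at 5 µg/mL, with biotin and pantothenate, in high-glucose medium. The labels do not state whether the 3 replicates were separate cultures or animals, so their spread may be technical. Cells of all groups were transfected and the reference was not, and dyes were not swapped, so differentiation, transfection and dye cannot be told apart in a ratio to the reference. All groups share this layout when siRNAs are compared, but the balance of the 2 channels was not the same in all groups. Array medians of log2 Cy3 over Cy5 averaged 0.12 on control and -0.21 on GPR124 arrays.

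Preadipocytes are fibroblast-like cells that leave the cell cycle and remodel their matrix when insulin and glucocorticoid start adipogenesis. Many transcripts of the precursor state are turned down while lipid storage genes come on. GPR124, also named ADGRA2, is an adhesion G-protein-coupled receptor that works with RECK as a coactivator of WNT7 signals through Frizzled receptors, and canonical Wnt signalling is known to restrain adipogenesis. LGR4 is a receptor for R-spondins, which strengthen Wnt signals, and F2RL2 encodes the thrombin receptor PAR3. Which genes the 380 probes measure was not analysed here, because 0 of the array's identifiers were found among the pig gene names and accessions at hand. The targeted transcripts, gene groups and markers of fat cells or other cell types were therefore not analysed here either. Several probes may report 1 transcript, so the 380 probes are not 380 independent genes.

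The rule worked on log ratios, that is log2 of the processed Cy3 signal over the processed Cy5 signal, minus the median of that array. It kept probes with a control mean of at most -1, a GPR124 mean at least 1 (2-fold) above control, and F2RL2 and LGR4 means less than 0.5 from control. Signals also had to be well above background in Cy3 on all 3 GPR124 arrays and in Cy5 on all 3 control arrays. Of 4792 probes with a control mean of at most -1, 2297 met both signal conditions and are called readable repressed probes here. A GPR124 mean at least 1 above control was met by 10.3% of all probes. Among the readable repressed probes 1028 met it, and 380 of the 1028 (37.0%) met the limits on the other siRNAs. Of all 2297 readable repressed probes, 1078 met those limits, a larger share. Without the signal conditions the rule would have kept 592 probes. Probes close to a limit had like values on either side. The 2 probes nearest the control limit had means of -1.001 and -0.998, and those nearest the GPR124 limit had differences of 1.001 and 0.999. At the upper limits the nearest values were 0.499 and 0.501 for F2RL2 and 0.498 and 0.5001 for LGR4. At the lower limits they were -0.477 and -0.507 for F2RL2 and -0.492 and -0.529 for LGR4.

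Array by array, the median log ratio of the 380 probes was -1.68, -1.79 and -1.62 on control replicates 1 to 3. It was -1.63, -1.80 and -1.52 on the F2RL2 arrays and -1.65, -1.49 and -1.47 on the LGR4 arrays. On the GPR124 arrays it was -0.44, -0.39 and -0.20. The 3 GPR124 arrays thus stood above the other 9, with no overlap of array medians. Of the F2RL2 and LGR4 arrays, those at -1.52, -1.49 and -1.47 lay above every control array. The one at -1.80 lay just below the lowest control array. Averaged over arrays in this way, the groups were at -1.70 ± 0.088 (SD, n = 3) for control, -1.65 ± 0.14 for F2RL2, -1.54 ± 0.098 for LGR4 and -0.34 ± 0.12 for GPR124. Within single probes the 3 GPR124 arrays spread a little more than the 3 control arrays, with a median SD of 0.16 against 0.11. Over the readable repressed probes these medians were 0.15 and 0.098. In 376 of the 380 probes the lowest GPR124 array lay above the highest of the other 9 arrays, against 22.9% of all probes, and in 379 it lay above the highest control array, against 41.3%. The rule itself favours both. In the 4 others the ranges overlapped by at most 0.76. In the widest case LGR4 replicate 3 was at 0.028, against -2.35 and -2.35 on the other LGR4 arrays. No probe of the 380 was above the reference on any control or F2RL2 array, and 1 was on an LGR4 array. On the GPR124 arrays 291, 288 and 251 of the 380 were below it.

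The difference between GPR124 and control means had a median of 1.31, or 2.48-fold, and ranged from 1.00 to 4.94. It reached 2 in 23 probes. Over the readable repressed probes the median of this difference was 0.92, and over all probes 0.23. The rule asks for a difference of at least 1, so a higher median in the chosen probes follows from the choice. Among the 334 probes well above background in both channels on all 12 arrays, AGPOA3-16191 differed most. Its log ratio was -2.43, -2.61 and -2.31 with control siRNA, -2.49, -3.41 and -2.68 with F2RL2 siRNA, and -2.52, -1.9998 and -1.95 with LGR4 siRNA. With GPR124 siRNA it was 0.59, 0.93 and 1.15. Every GPR124 array was therefore above the preadipocyte level, whereas the other 9 arrays lay at -1.95 or lower. The means were -2.45 ± 0.15 (SD, n = 3) and 0.89 ± 0.28, a difference of 3.34 or 10.1-fold. In Cy3 alone the difference was 2.72, and in Cy5 alone -0.30, each with array medians set to 0.

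AGPOA3-16334 came next, with log ratios of -1.28, -1.17 and -1.09 on control arrays, -0.87, -1.03 and -0.79 on F2RL2 arrays and -1.30, -0.85 and -0.38 on LGR4 arrays. The GPR124 arrays gave 1.15, 1.45 and 1.67, a difference from control of 2.60 or 6.07-fold. Here too the GPR124 arrays lay above the reference and all others below it, but the LGR4 arrays were uneven, and the array on the slide shared with GPR124 was the highest of the 3. The deepest fall among the 380 probes was a control mean of -4.27 ± 0.28 (SD, n = 3), or 19.3-fold below preadipocytes. That probe was at -2.74 ± 0.021 with GPR124 siRNA, 2.88-fold above control and still far under the reference. After normexp background correction and loess its difference from control was 0.43, where the median over the 380 was 0.81. Its Cy3 signal was well above background on 2 of 3 F2RL2 and 2 of 3 LGR4 arrays.

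Of the 7 largest differences, 4 belonged to probes that were dim in control cells. In these 4 probes Cy3 was not well above background on any control array, and they ranked 1st, 2nd, 3rd and 7th by difference. For these only a bound can be given, taken per channel after loess and quantile scaling of average intensities, with each control array set at its lowest readable signal or the probe's own, whichever was higher. They were at least 2.44-fold, 4.35-fold, 2.002-fold and 2.11-fold higher with GPR124 siRNA than with control. Cy5 was well above background on at most 1 of 3 GPR124 arrays for each of them. The probe with the highest GPR124 mean, 3.16 ± 0.63 (SD, n = 3) against -1.49 ± 0.18 in control, was among these 4.

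How close the probes came to the preadipocyte level with GPR124 siRNA varied with the scale. On the rule's scale the GPR124 mean was within 0.5 of the reference in 206 of the 380 probes (54.2%), between -1 and -0.5 in 70 and at most -1 in 77. It was at least 0.5 above the reference in 27. Without median centring the median GPR124 mean was -0.53 and 163 probes (42.9%) were within 0.5 of the reference. After normexp and loess these were -0.51 and 178 (46.8%). All 3 GPR124 arrays lay below 0 in 237 probes and above 0 in 63. The level reached moved with the depth of the fall in control cells. The 154 probes with a control mean between -1.5 and -1 had a median of 0.025 with GPR124 siRNA, and 86 of them were above 0. The 100 probes between -2 and -1.5 had a median of -0.43, the 111 between -3 and -2 a median of -1.06, and the 15 at -3 or lower a median of -1.56. In the last class 14 of 15 remained at -1 or lower. The difference from control was of like size throughout, with medians of 1.22, 1.31, 1.36 and 1.66 from the shallowest to the deepest class. The lower bound of 1 on that difference is part of the rule. Of the readable repressed probes in those classes, 14.2%, 18.9%, 24.0% and 6.73% were among the 380.

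The 2 other siRNAs did not behave alike inside their limits. F2RL2 means were above control in 229 and below it in 151 of the 380 probes, with a median difference of 0.051. LGR4 means were above control in 309 and below it in 71, with a median difference of 0.26, and 193 of the 309 were 0.25 or more above it. With a limit of 0.25 in place of 0.5 for both siRNAs, 113 probes were left. Over the readable repressed probes the median differences were 0.23 for F2RL2 and 0.38 for LGR4, and over all probes 0.052 and 0.047. Of the 2297 readable repressed probes, 1695 were above control with F2RL2 and 1868 with LGR4 siRNA. Of all 43221 probes these were 24043 and 23795. The LGR4 share among the 380 was thus about that of the readable repressed probes, and is not particular to them. The 3 comparisons share the control arrays.

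Repressed probes were also sorted by how they stood with the other siRNAs. Of the 1028 readable repressed probes at least 1 above control with GPR124 siRNA, 322 (31.3%) were also at least 0.5 above it with LGR4 siRNA but within 0.5 with F2RL2 siRNA. A further 241 (23.4%) were at least 0.5 above control with all 3 siRNAs, and 50 (4.86%) with F2RL2 and GPR124 siRNA only. As shares of the readable repressed probes with the same F2RL2 and LGR4 values, these were 69.7% of 462, 52.4% of 460 and 28.2% of 177. The 380 were 35.3% of 1078. Those 462, 460, 177 and 1078 probes are classes of the 2297 readable repressed probes. Of the 2297, 1028 were at least 1 above control with GPR124 siRNA. The 82 probes that were at least 1 above control with all 3 siRNAs had fallen further than the 380, to a control median of -2.61 against -1.70, and had a GPR124 median of -0.50. When the same rule was turned to the other siRNAs, 12 probes were held up with F2RL2 siRNA alone and 8 with LGR4 siRNA alone, against 380 with GPR124 siRNA. When turned, the rule asks for a GPR124 mean within 0.5 of control. Of the 2297 readable repressed probes, 1711 were at least 0.5 above control with GPR124 siRNA, against 643 with F2RL2 and 927 with LGR4 siRNA. The 3 counts are therefore not like for like, and nothing is read from them. No test was made of these counts, which all rest on 1 set of control arrays.

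The calls of a fit across all probes were set beside these values. It used other processing of the same spots, normexp background correction and loess, in limma with Benjamini-Hochberg adjustment over 32346 probes (32344 where GPR124 arrays enter). All 380 probes were called lower in control cells than in the reference, against 34.6% of all probes, with 28.6% called higher and 63.2% called either way. The reference counts there as 1 sample and its own spread is left out. With GPR124 siRNA 377 were called higher than control and 0 lower, against 22.5% and 16.9% of all probes (39.4% either way). Against F2RL2 siRNA 375 were called higher with GPR124 siRNA and 0 lower, against 22.1% and 19.3% of all probes (41.4% either way). Against LGR4 siRNA 351 were called higher and 0 lower, against 18.6% and 18.9% (37.5% either way). All of these contrasts fed the rule, so the counts carry no support. With F2RL2 siRNA 13 of the 380 were called higher and 13 lower than control, against 10.0% and 7.95% of all probes (17.9% either way). With LGR4 siRNA 120 were called higher and 2 lower, against 13.7% and 9.37% (23.1% either way). Of the readable repressed probes, 51.8% were called higher with LGR4 siRNA. The limit on LGR4 is part of the rule, so nothing is read from these shares. In the 120 probes the LGR4 difference was 0.21 to 0.56 with a median of 0.39, against a median GPR124 difference of 0.91, and 110 of them were called higher with GPR124 than with LGR4 siRNA. The probes called higher with GPR124 siRNA and called with neither of the other 2 numbered 246, or 64.7% of the 380. Over all probes the share was 12.4%. The rule's limits on GPR124, F2RL2 and LGR4 means favour a high share among the chosen probes, so nothing is read from this contrast. A missed call does not show that the other siRNAs had no effect.

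These F2RL2 and LGR4 counts were sensitive to processing. With normexp and median centring in place of loess, limma called 0 of the 380 with F2RL2 siRNA, where 2181 of all probes were called and 23 of the 380 had an unadjusted p under 0.05. It called 46 with LGR4 siRNA (12.1%), close to the 11.1% of all probes called in that fit. With the processed signals, 75 were called with LGR4 siRNA (19.7%), against 17.5% of all probes. The 26 F2RL2 calls became 12 without control replicate 1, 8 without control replicate 3 and 12 without F2RL2 replicate 3. Over all probes the F2RL2 calls fell as well, from 5803 to 4034, 3624 and 4067. The 122 LGR4 calls became 74 without control replicate 2 and 81 without LGR4 replicate 2. Over all probes the LGR4 calls fell from 7456 to 5778 and 5866.

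The size of the GPR124 difference depended on scale. The array medians that the rule subtracts were 0.087 to 0.14 on control arrays and -0.25 to -0.15 on GPR124 arrays, so subtracting them adds 0.32 to every difference. Without it the median difference of the 380 probes was 0.99, and 184 reached 1. In Cy3 alone, with each array's median set to 0, the median difference was 0.78 and 109 probes reached 1. It was above 0 in 378 and below 0 in 2. In Cy5, the untreated reference, the same probes were lower on GPR124 than on control arrays in 357 of 380, with a median of -0.22. The readable repressed probes had the same Cy5 median, -0.22, and all probes -0.17, while their Cy3 medians were 0.36 and -0.015. The rule asks for a large difference in the ratio, so with like Cy5 shifts a larger Cy3 shift follows from the choice.

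After normexp and loess the median difference was 0.81, with a median standard error of 0.10, and 95 of the 380 probes reached 1. All 380 kept a positive difference, with a lowest value of 0.22. The gap between scales was wider for dim probes. All probes were split by Cy5 brightness on control arrays into 4 classes of equal size, and the dimmest held 0, the next 23, the next 165 and the brightest 192 of the 380. From the dimmer to the brighter of these, the median difference was 1.67, 1.36 and 1.26 by the rule. After loess it was 0.62, 0.71 and 0.89. When the whole rule was applied to the loess ratios it found 100 probes, of which 74 were among the 380. Those 74 probes had a control median of -2.04 and a GPR124 median of -0.41 on the rule's scale, a median difference of 1.64, and were brighter, at a median Cy5 percentile of 83.6 against 75.5. Their median differences with F2RL2 and LGR4 siRNA were 0.013 and 0.31. Without median centring the rule found 164 probes, 160 of them among the 380, and 70 were found in all 3 ways. AGPOA3-16191 had a difference of 1.97 and AGPOA3-16334 of 1.72 after loess.

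The group differences that the rule used were also read on arrays that took no part in the choice. Each replicate number was left out of all groups in turn, the rule was applied to the 8 other arrays, and the probes found were read on the 4 arrays left out. Numbers serve here only to pick the arrays left out. The GPR124 arrays left out lay on the same slide as those used, as did the control arrays, and the replicates may be technical. A shift common to a slide would thus be in both, and these values are not independent of it. The rule found 414, 384 and 395 probes without replicates 1, 2 and 3, and these lists overlap. Their median GPR124 difference was 1.30, 1.32 and 1.27 on the arrays used and 1.16, 1.38 and 1.34 on the arrays left out. A difference of at least 1 was met on the arrays left out by 66.4%, 90.4% and 89.9%, against 12.4%, 12.5% and 12.8% of all probes and 40.0%, 47.8% and 47.2% of readable repressed probes. The difference was above 0 in 407 of 414, 384 of 384 and 395 of 395. The control log ratio was again at most -1 in 92.5%, 97.4% and 90.6%. On means of all 3 arrays, the GPR124 difference was above 0 in 27483 of all 43221 probes and in 2118 of the 2297 readable repressed probes. The control mean was at most -1 in 4792 of all probes. Those are group means and not single arrays, so the shares are not like for like.

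The limits on the other siRNAs carried over less evenly. F2RL2 was within 0.5 of control on the arrays left out in 87.7%, 94.8% and 85.8% of the probes found, where all probes gave 70.7%, 76.1% and 56.3%. LGR4 was within 0.5 in 88.2%, 63.0% and 82.3%, where all probes gave 65.6%, 70.7% and 57.3%. On replicate 2 the share for LGR4 was thus below that of all probes, at a median LGR4 difference of 0.41. All 4 conditions on log ratios were met again by 214 of 414, 194 of 384 and 237 of 395 probes found.

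Slides and siRNAs were partly tied together. The 3 control arrays and F2RL2 replicate 1 lay on slide 1, F2RL2 replicates 2 and 3 with LGR4 replicates 1 and 2 on slide 2, and LGR4 replicate 3 with the 3 GPR124 arrays on slide 3, so no slide held both GPR124 and control arrays. Within slide 3, the GPR124 mean was a median of 1.06 above LGR4 replicate 3 over the 380 probes, and 377 had all 3 GPR124 arrays above it, against 49.3% of all probes. The rule used all 4 of these arrays, and its limits on GPR124 and LGR4 favour such a gap. LGR4 replicate 3 itself lay a median of 0.088 above the 2 LGR4 arrays of slide 2, against 0.027 over all probes and 0.043 over readable repressed probes. It was above both of them in 48.9% of the 380 probes and 40.0% of all probes. It was at least 0.5 above the control mean in 71 probes and at least 1 above it in 3. On slide 1, F2RL2 replicate 1 lay a median of 0.10 above the control mean. With slide as a fixed block, 185 of the 380 probes were called higher and 1 lower with GPR124 than with control siRNA in limma. Of all probes 7.89% were called in that fit, against 39.4% without the block. The median difference of the 380 probes was 0.86 with the block and 0.81 without it. With the block, GPR124 and control are linked only through F2RL2 and LGR4 arrays, with 1 such array on slide 1 and 1 on slide 3. The rule set limits on those arrays too, so the choice favours a like difference, which is no check on slide. For LGR4 siRNA 16 were called higher and 1 lower (4.47%, against 8.38% of all probes), and for F2RL2 siRNA 6 higher and 3 lower (2.37%, against 12.8%).

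Signal quality differed between the arrays compared. Over all probes, 23594 to 26485 were well above background in Cy5 on the GPR124 arrays against 31024 to 32394 on control arrays. In Cy3 the ranges were 24720 to 29243 and 27810 to 28372. Outlier spots numbered 154 to 335 on the 4 arrays of slide 3 and 1 to 4 on the others, and 8 of the 380 probes had such a spot, which the limma fit left out. Leaving those spots out of the group means gave 382 probes by the rule, including all 380. No spot of the 380 probes was saturated. The part of these signal differences in the results was not tested.

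Most of the 380 probes were well above background throughout. Cy3 was well above background on all 3 control arrays in 368, on all 3 F2RL2 arrays in 367 and on all 3 LGR4 arrays in 335, and Cy5 on all 3 GPR124 arrays in 366. The 334 probes read in both channels on all 12 arrays had a median GPR124 difference of 1.29, and the 46 others 1.65. Their median Cy5 percentile on control arrays, 75.5, was close to the 76.9 of the readable repressed probes. They were spread over the array, making up 0.947%, 0.876%, 0.877% and 0.817% of the probes in 4 equal bands of its rows.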

How the data were processed

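Agilent Feature Extraction 9.5.3.1 quantified the spots, per the file headers. Slides were told apart by the scan barcodes of the deposited files. The deposited processed signal intensity of each channel was background-subtracted, spatially detrended and dye-normalized by that software, and median spot and local background intensities were deposited without normalization. The deposited log10 ratio column gives Cy5 over Cy3 and served only to check direction. The authors' value table holds log2 ratios equal to processed Cy3 over processed Cy5 within 5e-10, without centring. The number of arrays limits the precision.

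The rule was applied to processed signals over 43221 probes, leaving out 1417 control spots. For the fit, median signals were corrected with normexp (offset 50) and normalized by loess within arrays, control spots at weight 0 and outlier spots left out. It covered 32346 probes for which 3 or more of 12 arrays had Cy3, or 3 or more had Cy5, well above background. The model had a mean for each of 4 groups, fitted in limma 3.58.1 (lmFit, eBayes) under R 4.3.3, and p-values adjusted by Benjamini-Hochberg were called under 0.05. Tested on simulated data for GPR124 against control over 32346 probes, it recovered 94.5% of 200 probes changed by 1 on the log2 scale. It also called 12 unchanged probes. The simulated spread was independent between arrays, with no slide effect, so the test does not cover the tie between slides and siRNAs. Identifiers are printed for the 2 probes with the largest difference among those read in both channels on all arrays, and other probes are described by rank. Gene and marker lists were not analysed here, since no probe had a gene name. The 4 probes whose arrays overlapped and the 74 and 70 probes found on other scales were singled out after their values were seen. The members and lists were chosen with earlier results of these data known. Alternatives covered background correction, normalization, filters, outlier spots, slide and replicate blocks, thresholds and each array left out. Deviations from group means correlated above 0.1 in 7 of 18 same-numbered pairs. These included all 3 pairs of LGR4 and GPR124 arrays (0.54, 0.40 and 0.22), and no other 2 groups had all 3 above 0.1. Only for that comparison did the numbers meet the criterion for pairing. Negative values were as large: -0.58 and -0.50 for F2RL2 and GPR124 replicates 1 and 2, and -0.55 for F2RL2 and LGR4 replicate 1. Meeting the criterion therefore does not show that these arrays were paired.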

Additional observations from a re-analysis of the deposited data

How the results depend on the processing

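Results were compared over 60 alternatives that kept all arrays and 90 that left out 1. Counts were compared only by size, so just the median difference could reverse. It did not, but the choice of probes favours a positive difference. The number of probes found by the rule was 380. It was 100 with normexp and loess ratios, 164 without median centring and 113 with limits of 0.25, and 343 to 462 without single arrays. With the LGR4 or F2RL2 mean taken from its array on slide 3 or slide 1 alone, alternatives chosen after seeing the data, it was 315 and 365. The median difference between GPR124 and control siRNA was 1.31. It was 0.806 with normexp and loess, 0.991 without centring, 0.785 in Cy3 alone and 0.997 in Cy3 scaled to its 75th percentile, and 1.25 to 1.37 without single arrays. With slide as a fixed block 186 of the 380 probes were called for GPR124 against control siRNA, in place of 377. The median difference of the 380 was 0.86 in place of 0.81. As no slide held both groups, that difference rests on F2RL2 and LGR4 arrays that the rule also used. Of all probes 2552 were called with that block, in place of 12748. For F2RL2 and LGR4 siRNA against control, 9 and 17 were called with that block, 0 and 46 with normexp and median centring and 15 and 75 with the processed signals, in place of 26 and 122. Over all probes these were, in the same order, 4128 and 2711, 2181 and 3576, and 4296 and 5657, in place of 5803 and 7456. The cause was not tested. Without single arrays the calls were 367 to 378 for GPR124, 8 to 36 for F2RL2 and 74 to 147 for LGR4 against control, 354 to 375 and 319 to 357 for GPR124 against F2RL2 and LGR4, and 378 to 380 for control against the reference. Over all probes the calls against control were 10445 to 13561 for GPR124, 3624 to 6683 for F2RL2 and 5414 to 8342 for LGR4. With the replicate number as a block the calls were 377, 18 and 106 for GPR124, F2RL2 and LGR4 against control, and 342 for GPR124 against LGR4, whose arrays met the criterion for pairing, in place of 351. The block moved no count of calls by more than 1.5 times, and 3 of 12 arrays correlated best with an array of their own number. Over all probes, the share of GPR124 calls against control that were higher was 57.0% after loess, 73.8% with median centring and 84.6% with the processed signals. In that order it was 55.7%, 69.0% and 70.8% for F2RL2 and 59.3%, 74.3% and 54.0% for LGR4 against control, 53.4%, 64.1% and 77.7% for GPR124 against F2RL2, 49.5%, 61.0% and 84.2% for GPR124 against LGR4, and 45.3%, 27.2% and 36.3% for control against the reference. Probes not well above background in Cy3 on control arrays have only bounds.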
